A study of Mus musculus with 167 samples.

Results

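The miR-17-92 and miR-106b-25 clusters are paralogous groups of microRNA (miRNA) hairpins, each transcribed as 1 primary RNA. Their 10 mature miRNAs were taken by name from the 1915 mature miRNAs counted in every library. The miR-17-92 cluster gave 6 (mmu-miR-17-5p, mmu-miR-18a-5p, mmu-miR-19a-3p, mmu-miR-19b-3p, mmu-miR-20a-5p and mmu-miR-92a-3p) and the miR-106b-25 cluster gave 4 (mmu-miR-106b-5p, mmu-miR-106b-3p, mmu-miR-93-5p and mmu-miR-25-3p). All 10 had at least 1 read in each library and all 10 passed the filter on low counts in each comparison.

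Small RNA was sequenced from homogenised lung, heart and brain and from the white (WBC) and red (RBC) blood cell fractions of C3Hf/Sed/Kam (C3H) and C57Bl/6 (C57) mice. The mice were gnotobiotic young adults that had received whole thorax lung irradiation (WTLI), in which X-rays are given in 1 dose to the chest while the remaining body is shielded, or had been sham irradiated. Tissues came from month 4 in C3H and month 6 in C57 mice, so that strain and time cannot be told apart. Lung, heart, brain and RBC were each measured in 7 irradiated and 8 sham C3H mice and in 5 irradiated and 15 sham C57 mice. WBC were measured in 6 irradiated and 5 sham C3H mice and in 5 irradiated and 11 sham C57 mice. Every C3H animal was a female, as was 1 of the 5 C57 animals given WTLI. Of the 15 C57 sham mice 7 were female, so sex was not balanced between treatments in C57. The reported irradiation tests held no term for sex. The irradiated mice were those alive at the end point, the organs had been flushed with saline, and the blood fractions were separated by centrifugation only.

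Both clusters are known as growth-promoting miRNA genes under the control of MYC and E2F transcription factors, and miR-17-92 is needed for normal lung, heart and B cell development. A miRNA recognises its target mRNAs mainly through its seed, bases 2 to 8, so members with 1 seed are expected to share targets. Targets of the miR-17 seed include the cell cycle inhibitor Cdkn1a and the TGF-beta receptor Tgfbr2, and those of the miR-92 seed include Bcl2l11, which promotes cell death.

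The mature sequences are given because 5 seeds divide the 10 miRNAs in a way that crosses the clusters. All 10 names matched a RefSeq entry of the GRCm38.p6 assembly. Each sequence is written 5′ to 3′ with its seed in capitals. The seed AAAGUGC is shared by 4 members, 2 from each cluster:
miR-17-5p: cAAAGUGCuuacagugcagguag
miR-20a-5p: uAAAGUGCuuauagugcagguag
miR-106b-5p: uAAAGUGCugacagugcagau
miR-93-5p: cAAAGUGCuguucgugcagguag
The seed of miR-18a-5p differs from it by 1 base:
miR-18a-5p: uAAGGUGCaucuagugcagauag
The seed GUGCAAA belongs to a pair that differs by the single substitution U11C, counted from the 5′ end and written from miR-19a-3p to miR-19b-3p:
miR-19a-3p: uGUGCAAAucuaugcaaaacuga
miR-19b-3p: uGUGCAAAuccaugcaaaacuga
The seed AUUGCAC is shared by 1 member of each cluster, which differ by U1C, C14U and C18U from miR-92a-3p to miR-25-3p:
miR-92a-3p: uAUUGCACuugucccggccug
miR-25-3p: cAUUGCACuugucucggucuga
The last member comes from the 3p arm of the miR-106b hairpin and shares its seed with no other member:
miR-106b-3p: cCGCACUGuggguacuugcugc

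In GRCm38.p6 the 6 hairpins of miR-17-92 lie at chr14:115043671-115044506 on the plus strand, a span of 836 bases inside the exon of the long non-coding RNA gene Mir17hg. The 3 hairpins of miR-106b-25 lie at chr5:138165321-138165818 on the minus strand, a span of 498 bases inside Mcm7, a gene for a subunit of the replicative helicase. Mir106b overlapped no annotated exon there, and Mir93 and Mir25 overlapped only a retained-intron transcript. The mature miR-19b-3p and miR-92a-3p are also made from the X-linked miR-106a-363 cluster with identical sequence, so reads of these 2 members from the 2 loci cannot be told apart.

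Library totals ranged from 1794995 to 7865102 counts with a median of 3475620. Levels are given as RPM, the reads of a miRNA divided by the library total and multiplied by 10 to the power of 6. Between miRNAs they compare reads, since library preparation can favour some sequences. Summed cardiac, neuronal and airway marker miRNAs were highest in heart, brain and lung, but the 2 blood fractions were poorly separated. The summed erythrocyte markers (miR-451a, miR-486a-5p and both arms of miR-144) stood at 48050 ± 22484 RPM in sham WBC (SD, n = 16) and 54488 ± 16741 RPM in sham RBC (SD, n = 23). The summed leukocyte markers were no higher in sham WBC (22999 ± 5378 RPM, SD, n = 16) than in sham RBC (27132 ± 6648 RPM, SD, n = 23). Over all libraries 4 of these 5 markers had higher medians in WBC, miR-223-3p (528 against 115 RPM), miR-150-5p (230 against 86.7 RPM), miR-155-5p (20.7 against 4.47 RPM) and miR-142a-3p (6327 against 5223 RPM), while miR-142a-5p, the most abundant, was lower (14960 against 20940 RPM). None of the markers of either list was at 0 in either fraction. In tissue homogenates and blood pellets, a lower level can mean fewer cells of a type or less of the miRNA per cell, and these cannot be told apart.

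The first comparison asked how the members differ between blood and organs in sham mice. Blood held far more of 9 members than the organs, and miR-106b-3p alone among the 10 was lower in blood by RPM. The miR-106b-25 cluster summed to 109083 ± 15272 RPM in RBC (SD, n = 23) and 104368 ± 14694 RPM in WBC (SD, n = 16), against 5519 ± 1055 RPM in lung, 4386 ± 447 RPM in brain and 3569 ± 565 RPM in heart (SD, n = 23 each). The miR-17-92 cluster summed to 7799 ± 2897 RPM in RBC and 6847 ± 1512 RPM in WBC, against 1293 ± 336 RPM in lung, 686 ± 256 RPM in heart and 291 ± 54.6 RPM in brain. The mean over blood libraries was 23.9 times that over organ libraries for the miR-106b-25 sum and 9.79 times for the miR-17-92 sum. These shares depend on what else fills a library. With the most abundant miRNAs of blood, lung and heart (miR-16-5p, miR-126a-3p and miR-1a-3p) removed from every total, the mean miR-106b-25 sum was 199549 RPM in RBC and 9760 RPM in lung.

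**Figure D1:**
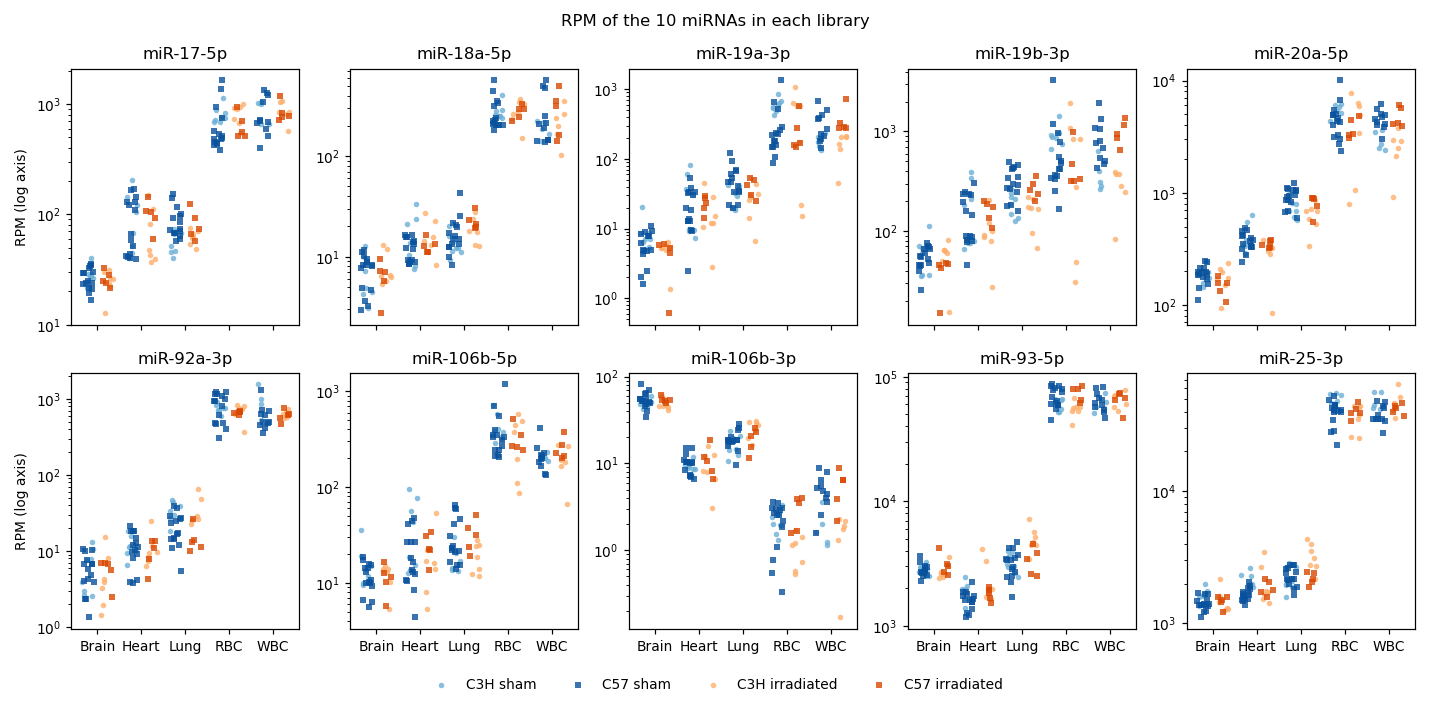
RPM (log axis) of each of the 10 miRNAs in every library by tissue, with blue points for sham and orange points for irradiated libraries, and circles for C3H and squares for C57. For miR-93-5p every RBC and WBC library lies above every organ library, while miR-106b-3p is highest in brain and lowest in RBC.

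Among the AAAGUGC members, miR-93-5p was the most abundant by reads in every tissue. In the 39 sham blood libraries its lowest, median and highest levels were 45319, 61436 and 86962 RPM, and in the 69 sham organ libraries they were 1171, 2644 and 4701 RPM. The groups did not overlap, and by mean level miR-93-5p ranked 3 among 756 miRNAs detected in RBC but 38 in lung and 48 in brain. Levels of miR-20a-5p were 2336, 4394 and 10081 RPM in blood and 111, 360 and 1225 RPM in organs, also without overlap. Those of miR-17-5p were 387, 684 and 1645 RPM in blood and 16.8, 51.7 and 206 RPM in organs. Those of miR-106b-5p were 135, 255 and 1180 RPM in blood and 4.39, 15.8 and 94.7 RPM in organs. For all 4 members of this seed family, every sham blood library thus stood above every sham organ library. For this and the following counts of members without overlap, the share over all miRNAs is not given here. In the test given below, 71.8% of 524 miRNAs were called different between blood and organs.

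The AUUGCAC pair showed the same separation with very different levels. In blood, miR-25-3p had 22444, 42406 and 56723 RPM as its lowest, median and highest levels, and in organs 1113, 1737 and 2853 RPM. The levels of miR-92a-3p were 301, 717 and 1550 RPM in blood and 1.35, 11.2 and 46.3 RPM in organs. The ratio of mean levels between blood and organs was 53.2 for miR-92a-3p, the highest of the 10, and 22.7 for miR-25-3p. No blood library overlapped the organs for either miRNA, and the same held for miR-18a-5p (138, 226 and 569 RPM in blood, 2.92, 11.2 and 43.0 RPM in organs).

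The GUGCAAA pair overlapped. Levels of miR-19a-3p were 87.6, 239 and 1346 RPM in blood and 1.59, 18.7 and 123 RPM in organs, and 37 of 39 blood libraries stood above all organs. Levels of miR-19b-3p were 167, 629 and 3274 RPM in blood and 25.8, 125 and 493 RPM in organs, and 24 of 39 blood libraries stood above all organs. Its ratio of mean levels, 4.56, was the lowest of the 9 members that were higher in blood. With irradiated mice included, all 62 blood libraries stood above all 105 organ libraries for miR-17-5p, miR-18a-5p, miR-92a-3p, miR-93-5p and miR-25-3p. This held for 60 blood libraries for miR-106b-5p, 59 for miR-20a-5p, 57 for miR-19a-3p and only 34 for miR-19b-3p.

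The 3p product miR-106b-3p went the other way. Its lowest, median and highest levels were 0.33, 2.57 and 8.92 RPM in blood and 6.56, 18.3 and 81.4 RPM in organs, and 37 of 39 blood libraries stood below all organs. Brain held 52.9 ± 10.02 RPM, lung 18.1 ± 4.65 RPM and heart 9.76 ± 2.35 RPM (SD, n = 23 each), while WBC held 4.04 ± 2.36 RPM (SD, n = 16) and RBC 2.21 ± 0.93 RPM (SD, n = 23). The order of the 5 tissues was thus nearly the reverse of that of miR-106b-5p from the same hairpin, which stood at 403 ± 220 RPM in RBC, 212 ± 62.9 RPM in WBC, 28.4 ± 23.2 RPM in heart, 27.5 ± 15.9 RPM in lung and 13.3 ± 6.14 RPM in brain. The heart and lung means of the 5p arm lay within 1 SD of each other in RPM, while by adjusted p after quantile scaling it was lower in lung (log2 difference -0.64, adjusted p = 0.0044, short of the fold minimum).

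In a limma fit on quantile normalised log2 RPM over 524 miRNAs, 9 of the 10 members were called higher in blood than in organs (adjusted p under 0.05 and a difference past the fold minimum, 1.17 on the log2 scale). Of all 524 miRNAs, 71.8% were called in this comparison and 34.9% were called higher in blood, and the median log2 difference was 5.59 for the members and -0.13 for all miRNAs. The largest difference was that of miR-92a-3p (log2 difference 8.17, SE 0.13, adjusted p = 7.66e-83), followed by miR-18a-5p (6.58, SE 0.11, adjusted p = 3.57e-82). The differences were 5.25 for miR-93-5p (SE 0.07, adjusted p = 6.98e-92), 5.36 for miR-25-3p (SE 0.04, adjusted p = 3.02e-115) and 4.34 for miR-19b-3p (SE 0.13, adjusted p = 4.34e-57). For miR-106b-3p the fitted difference was -0.26 (SE 0.12, adjusted p = 0.0375) and below the fold minimum.

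The size of these differences moved with the scaling, and the call of miR-106b-3p turned on it. With TMM factors the difference was 6.80 for miR-92a-3p, 5.47 for miR-93-5p and -2.20 for miR-106b-3p. With library size alone it was 5.98, 4.65 and -3.02. The same 9 members were called higher under each scaling, while miR-106b-3p was called lower with TMM and with library size. The median over all 524 miRNAs moved with them, from -0.13 to -1.46 with TMM and -2.28 with library size, and relative to that median miR-106b-3p stood at -0.13, -0.74 and -0.74. Of the miRNAs called, 48.7% were higher in blood after quantile normalisation, 28.4% with TMM and 20.6% with library size.

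**Figure D2:**
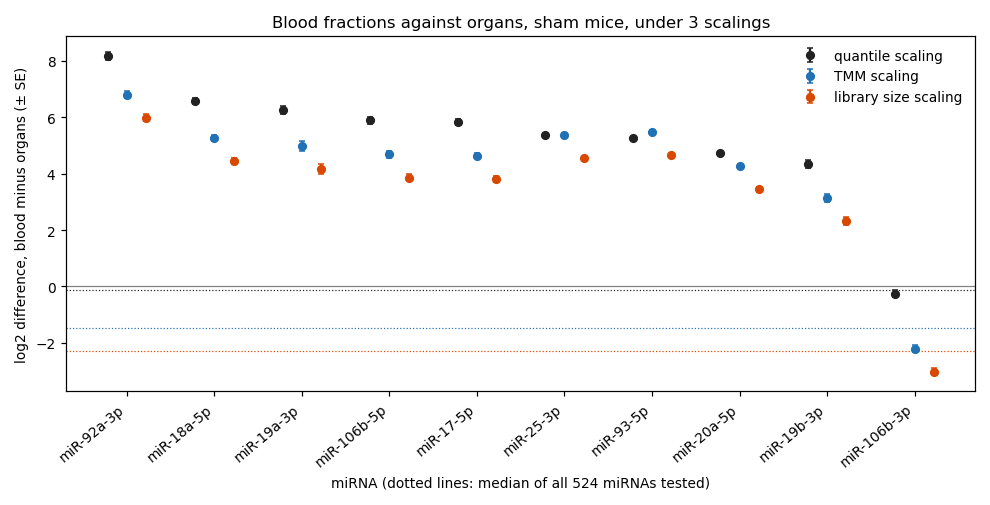
Log2 difference between sham blood and organ libraries for each miRNA (± SE) under quantile, TMM and library size scaling, with dotted lines at the median of all 524 miRNAs tested. The 9 members other than miR-106b-3p lie between 2.31 and 8.17 under every scaling, and miR-106b-3p lies below 0.

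The share of the 3p arm among all reads of the miR-106b hairpin does not depend on scaling between libraries. The hairpin is shown in RefSeq sequence from chr5:138165737-138165818 (minus strand, GRCm38.p6), with both mature arms in capitals, the 5p arm first:
Mir106b: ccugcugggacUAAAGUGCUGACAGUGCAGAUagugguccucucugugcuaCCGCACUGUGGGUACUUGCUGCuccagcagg
Over all libraries, sham and irradiated, the 3p arm made up 80.3% ± 7.2 of miR-106b reads in brain, 45.3% ± 14.5 in lung and 33.8% ± 15.6 in heart (SD, n = 35 each). It made up 1.76% ± 1.17 in WBC (SD, n = 27) and 0.631% ± 0.372 in RBC (SD, n = 35). The lowest organ library was at 8.77% (heart) and the highest blood library at 4.19% (WBC), so blood and organs did not overlap. In all 27 animals with 5 tissues, both blood fractions stood below every organ and brain stood above lung and heart. The 3p counts behind these shares were small in blood, 1 to 17 in RBC and 1 to 36 in WBC, against 72 to 247 in brain, and 9 libraries (8 RBC and 1 WBC) had 3 counts or fewer. As an example, 1 WBC library held 1 3p read among 395, or 0.253%, with an exact 95% binomial interval of 0.00641 to 1.4%, which covers counting error only.

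For the other hairpins measured, blood and organs overlapped in the 3p share. The median 3p share of Mir93 was between 0.055 and 0.149% in each tissue and that of Mir25 between 99.99 and 100%. Mir17 gave 43.3% in lung, 32.2% in brain, 28.9% in RBC, 24.0% in WBC and 17.8% in heart. Mir18 gave 8.39% in RBC and 7.08% in WBC against 3.85% in lung and 0% in heart and brain, on a median of 0 to 2 3p reads per organ library.

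**Figure D3:**
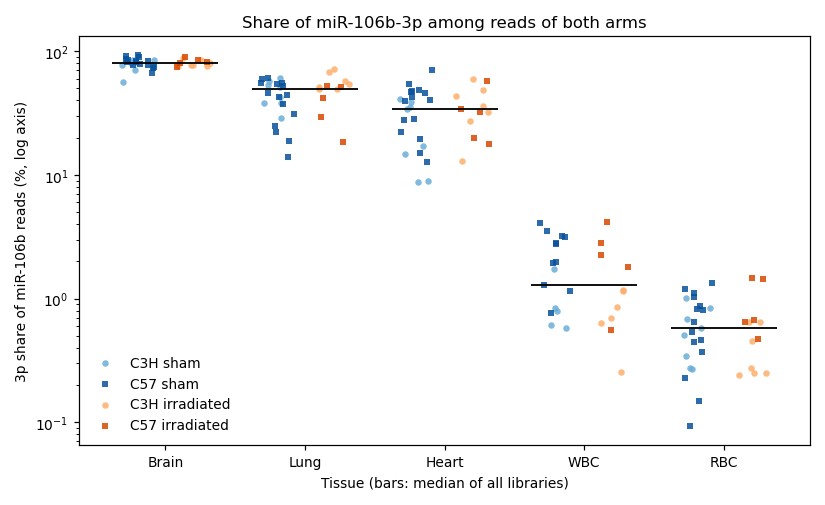
Percentage of miR-106b-3p among the reads of both arms (log axis) in each library, by tissue, strain and treatment, with bars at the median of all libraries of a tissue. The medians fall from 80.9% in brain to 49.5% in lung, 34.4% in heart, 1.30% in WBC and 0.583% in RBC.

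The balance of the clusters was examined next, as a description without a test. The mean log2 ratio of the miR-106b-25 sum to the miR-17-92 sum in sham mice was 3.93 ± 0.35 in brain (SD, n = 23), 3.87 ± 0.50 in RBC (SD, n = 23) and 3.95 ± 0.41 in WBC (SD, n = 16), and 2.45 ± 0.59 in heart and 2.11 ± 0.55 in lung (SD, n = 23 each). Within animals, WBC stood above lung in 16 of 16 mice and above heart in 16 of 16, and RBC stood above lung in 22 of 23 and above heart in 22 of 23. Lung and heart each stood below brain in 23 of 23 mice, while RBC stood above brain in only 13 of 23. Brain thus resembled blood in the ratio although its summed levels were those of an organ.

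Within miR-17-92, miR-20a-5p gave most reads in every tissue, with mean shares of 58.2 to 66.9%. The share of miR-92a-3p was 10.998% ± 4.11 in RBC (SD, n = 23) and 10.6% ± 5.6 in WBC (SD, n = 16), against 2.26% in brain, 2.09% in heart and 2.14% in lung, and both blood fractions were above each organ in every animal (23 of 23 for RBC, 16 of 16 for WBC). The share of miR-19b-3p was lower in blood, 8.95% in RBC and 9.83% in WBC, than in heart (21.8%), lung (20.6%) and brain (19.1%). Reads of miR-19b-3p outnumbered those of miR-19a-3p by a mean ratio of 9.91 in brain, 7.55 in heart and 6.99 in lung, but 1.96 in RBC and 2.53 in WBC. Within miR-106b-25, miR-93-5p and miR-25-3p gave nearly all reads, and miR-25-3p exceeded miR-93-5p only in heart (50.8 against 48.1%).

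**Figure D4:**
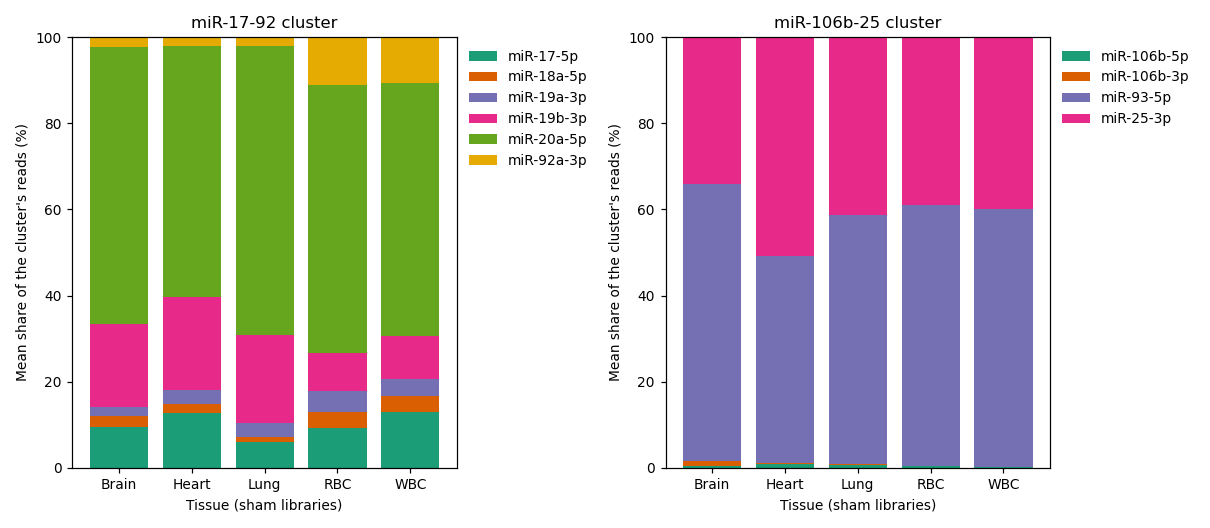
Mean share (%) of each mature miRNA among the reads of its own cluster in sham libraries, by tissue. In miR-17-92, miR-92a-3p takes 10.998% in RBC and 10.6% in WBC but 2.09 to 2.26% in the 3 organs.

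Taken by seed over both clusters, AAAGUGC miRNAs gave 65.3% of the reads in brain, 61.2% in lung, 52.3% in heart, 61.7% in RBC and 60.9% in WBC. The AUUGCAC pair gave 32.0% in brain, 33.5% in lung, 42.7% in heart, 37.0% in RBC and 37.9% in WBC. The GUGCAAA pair gave 4.82% in lung and 4.40% in heart, and 1.38% in brain, 1.03% in RBC and 0.93% in WBC.

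Pairs of tissues were compared in the same fit. Between heart and brain 8 of 10 members were called, all higher in heart, where 68.7% of all miRNAs were called. The 6 miR-17-92 members differed by 3.93 (miR-18a-5p) to 4.54 (miR-19a-3p) on the log2 scale, miR-106b-5p by 3.84 and miR-25-3p by 1.98, whereas miR-93-5p (0.52) and miR-106b-3p (0.20) were not called. Scaling mattered here too. With library size alone 4 members were called, miR-106b-3p lower and the others higher in heart, and miR-93-5p stood at -0.70. The difference of miR-106b-3p was -1.30 with TMM and -2.44 with library size, called lower in both. The median of all miRNAs was 0.37 after quantile normalisation, -0.80 with TMM and -1.95 with library size, and 51.9, 36.0 and 19.9% of the calls were higher in heart. Between WBC and lung 9 of 10 were called higher in WBC, where 64.5% of all were called, from 2.51 for miR-19b-3p to 6.16 for miR-92a-3p, beside a median of all miRNAs of 0.21 (-0.41 with TMM and -0.9999 with library size). There miR-106b-3p was at -0.76 and not called, but was called lower with TMM and with library size. Between lung and heart 0 of 10 were called by limma, where 34.4% of all were called. At an unadjusted p under 0.05 the count was 5 (67.6% of all miRNAs). By adjusted p alone 4 members passed (65.5% of all), with log2 differences between lung and heart of -0.99 for miR-17-5p, -0.64 for miR-106b-5p, -0.16 for miR-25-3p and 0.50 for miR-93-5p.

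Between RBC and WBC 2 of 10 were called higher in RBC, where 16.4% of all were called. These were miR-106b-5p (log2 difference 1.32, SE 0.18, adjusted p = 3.54e-10) and miR-19a-3p (1.19, SE 0.21, adjusted p = 1.28e-06). With TMM they were 1.10 (adjusted p = 1.1e-06) and 0.95 (adjusted p = 0.00053), and with library size 0.85 and 0.70, short of the fold minimum and so not called. In C3H mice alone miR-106b-5p was at 0.78 (adjusted p = 0.0505) and miR-19a-3p at 1.70, and in C57 mice alone they were at 1.87 and 0.73 (adjusted p = 0.0217 for the latter), so each call was lost in 1 strain. Of all calls 33.7% were higher in RBC after quantile normalisation against 6.93% with TMM and 3.33% with library size. Leaving out the WBC library of C3H sham replicate 5, or that of C57 sham replicate 1, 2, 3 or 4, also ended the call of miR-19a-3p.

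The next comparison asked whether the members changed after irradiation. By limma, 0 of 10 members were called in any of the 5 tissues in either strain. The background was 9.71% of 350 miRNAs in C3H lung and 6% in C57 lung, 6.73% of 312 in the heart of C3H mice and 0.962% in that of C57 mice, and 0% in brain, WBC and RBC of both strains. At an unadjusted p under 0.05 the members counted 4 in C3H lung (41.7% of all miRNAs), 2 in C57 lung (33.4%), 2 in C3H heart (32.7%), 2 in C3H RBC (18.8%) and 0 elsewhere (2.08 to 14.1%). These shares of members are near or below those of all miRNAs. With edgeR and DESeq2 also 0 members were called in every tissue and strain, where edgeR called 0 to 10.3% and DESeq2 0 to 10% of all miRNAs, and in C3H RBC 2.62 and 6.11%.

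**Figure D5:**
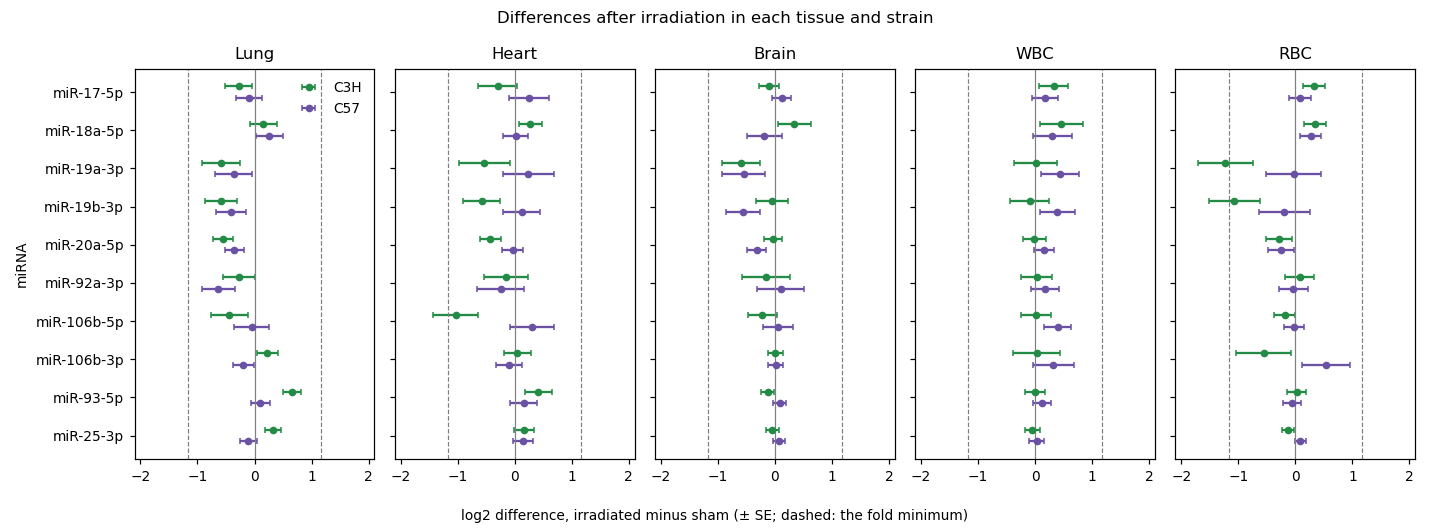
Log2 difference between irradiated and sham libraries (± SE, limma on quantile normalised values) for each miRNA, tissue and strain, with dashed lines at the fold minimum. The points furthest from 0 are those of miR-19a-3p and miR-19b-3p in C3H RBC and miR-106b-5p in C3H heart, and none was called.

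In C3H lung 2 members passed at an adjusted p without reaching the fold minimum, miR-93-5p with a positive and miR-20a-5p, of the same seed family, with a negative difference. The levels of miR-93-5p in the 7 irradiated mice were 3438, 4500 and 7209 RPM in libraries with the letter A in their label (its meaning is not stated) and 4471, 4671, 5172 and 5635 RPM in those with the letter B. In the 8 sham mice they were 2461, 2644, 3042 and 4014 RPM (A) and 2954, 3141, 3655 and 3925 RPM (B). Of the irradiated libraries, 6 of 7 stood above all sham libraries. The fitted log2 difference was 0.66 (SE 0.16, adjusted p = 0.0022), short of the fold minimum, and it stayed between 0.57 and 0.70 when any 1 library was left out. At an adjusted p alone, 2 of 10 members and 33.4% of all miRNAs passed in C3H lung.

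For miR-25-3p, the irradiated libraries were at 2166, 2772 and 4342 RPM (A) and 2719, 3124, 3526 and 3990 RPM (B), against 1573, 1943, 2090 and 2673 RPM (A) and 1902, 1980, 2689 and 2853 RPM (B) in sham mice. Here 4 of 7 irradiated libraries stood above all sham libraries, and the log2 difference was 0.33 (SE 0.14, adjusted p = 0.0791). For miR-106b-3p 5 of 7 irradiated libraries did so, with means of 25.3 RPM in irradiated and 16.5 RPM in sham mice. Its log2 difference stayed between 0.15 and 0.28 when any 1 library was left out (limma, adjusted p = 0.257 to 0.562). For miR-20a-5p the irradiated libraries were at 336, 527 and 579 RPM (A) and 684, 687, 711 and 865 RPM (B), against 683, 684, 817 and 986 RPM (A) and 567, 604, 688 and 794 RPM (B). These groups overlapped, with 2 of 7 irradiated libraries below all sham libraries, and the log2 difference was -0.55 (SE 0.17, adjusted p = 0.0131). The scaling decided both members that passed at an adjusted p. With TMM the difference of miR-93-5p was 0.32 (adjusted p = 0.167), and with library size alone that of miR-20a-5p was -0.25 (adjusted p = 0.282). The median of all 350 miRNAs moved from -0.08 after quantile normalisation to -0.02 with TMM and 0.27 with library size, and 64.7, 75 and 93.2% of the miRNAs called in C3H lung were higher after irradiation.

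Levels of miR-19b-3p are given by letter, a split made after the data were seen, and the difference between letters was not tested. Its C3H lung levels were 68, 95 and 169 RPM in irradiated and 188, 212, 240 and 267 RPM in sham libraries of letter A, without overlap, but 168, 173, 211 and 220 RPM against 125, 134, 147 and 218 RPM in letter B. Over both letters the log2 difference was -0.59 (SE 0.28, adjusted p = 0.110). Within letter A it was -1.36 (adjusted p = 0.00686), the only member called there (9.83% of all miRNAs were), and within letter B 0.08. Within the letters miR-93-5p stood at 0.85 (A, adjusted p = 0.0173) and 0.49 (B, adjusted p = 0.142), and miR-20a-5p at -1.02 (A, adjusted p = 0.0054) and -0.17 (B).

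Blood markers were correlated with several members in C3H lung. The erythrocyte sum was 289, 991 and 2254 RPM (A) and 374, 1063, 1124 and 2823 RPM (B) in irradiated and 181, 336, 428 and 942 RPM (A) and 343, 389, 718 and 1134 RPM (B) in sham libraries, so the groups overlapped, and none of the 4 markers was at 0 or passed the test. Across the 15 C3H lung libraries the log2 level of miR-93-5p correlated with that sum at r = 0.84 and that of miR-25-3p at r = 0.87, and across the 20 C57 lung libraries at -0.04 and 0.44. The leukocyte marker sum ranged from 2552 to 7019 RPM in irradiated and 3397 to 4826 RPM in sham C3H lung, and it correlated with miR-20a-5p at r = 0.69 (0.31 in C57 lung), miR-19b-3p at 0.66 (0.39) and miR-106b-5p at 0.74 (0.50). The part of blood RNA in these differences was not tested.

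In C57 lung the differences ranged from -0.63 (miR-92a-3p, adjusted p = 0.118) to 0.26. The strains were compared by the interaction of strain and irradiation, where 0 of 10 members were called by limma and 0.286% of all miRNAs in lung, 0% in the other tissues. The largest lung interactions were those of miR-93-5p (0.55, adjusted p = 0.317) and miR-25-3p (0.43, adjusted p = 0.352), both at an unadjusted p under 0.05 (13.4% of all miRNAs), as was 1 member in heart (16.3% of all) and none in brain, WBC or RBC (4.85, 1.72 and 5.24% of all). The ratio of the clusters in lung was 3.18 ± 0.38 on the log2 scale in irradiated (SD, n = 7) and 2.38 ± 0.33 in sham C3H mice (SD, n = 8), and 2.201 ± 0.547 (SD, n = 5) and 1.97 ± 0.60 (SD, n = 15) in C57 mice, given as a description.

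In C3H heart the largest difference was that of miR-106b-5p. Its levels were 5.35, 16.3 and 53.7 RPM (lowest, median, highest) in irradiated and 12.7, 31.0 and 94.7 RPM in sham mice, and the groups overlapped. The sham libraries split by letter without overlap, at 43.5, 56.1, 77.5 and 94.7 RPM (A) and 12.7, 13.7, 15.6 and 18.5 RPM (B), while the irradiated libraries were at 5.35, 22.1 and 53.7 RPM (A) and 8.15, 14.1, 16.3 and 17.1 RPM (B). The log2 difference was -1.04 (SE 0.39, adjusted p = 0.0607). It reached -1.28 (adjusted p = 0.0153) without irradiated replicate 1 and -1.18 (adjusted p = 0.0328) without sham replicate 5, and was then called. Within letter A, 3 members were called, miR-106b-5p (-1.45, adjusted p = 0.0449), miR-19b-3p (-1.20, adjusted p = 0.0458) and miR-93-5p (1.24, adjusted p = 0.0409), where 11.6% of all miRNAs were called, and none within letter B. Irradiated replicate 3, of letter A, stood apart in the summed cardiac markers (50690 RPM, against 152407 to 246805 RPM in the other irradiated and 216176 to 291001 RPM in the sham libraries) and in miR-1a-3p (4.57% of its reads, others 14.05 to 27.7%), and it held the lowest miR-106b-5p level. Without it the 3 calls within letter A were lost (-0.75, -0.60 and 1.01 in the same order, adjusted p = 0.222 to 0.293), 2.76% of all miRNAs were called there, and over both letters the difference of miR-106b-5p was -0.87 (adjusted p = 0.165). Of the airway markers, miR-34c-5p (2.43, adjusted p = 5.55e-08) and miR-34b-5p (1.89, adjusted p = 0.000292) were called higher after irradiation in C3H heart, while miR-200a-3p, miR-200b-3p and miR-200c-3p were not called (-0.67 to -0.34). Blood markers were correlated with miR-106b-5p, and miR-451a (log2 difference -1.33, adjusted p = 0.026) and miR-150-5p (-1.63, adjusted p = 1.42e-09) were called lower after irradiation. The other erythrocyte and leukocyte markers were not called, from -1.40 for miR-144-3p to 0.11 for miR-155-5p and 0.16 for miR-486a-5p. Over all libraries the median of miR-150-5p was higher in heart (339 RPM) than in WBC (230 RPM) and RBC (86.7 RPM). The erythrocyte sum ranged from 331 to 1722 RPM (median 451) in irradiated and 608 to 2740 RPM (median 862) in sham C3H heart, the leukocyte sum from 833 to 2656 RPM (median 1133) and 1065 to 10253 RPM (median 1618), and miR-106b-5p correlated with each at r = 0.85 over the 15 libraries. The part of the cells that these markers mark in the differences was not tested.

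In C57 heart the members ranged from -0.25 to 0.30, in brain from -0.60 to 0.34 over both strains, in WBC from -0.10 to 0.46 and in C57 RBC from -0.25 to 0.54. In C3H RBC, miR-19a-3p (-1.22, adjusted p = 0.213) and miR-19b-3p (-1.07, adjusted p = 0.219) had the lowest values of any tissue. Levels of miR-19b-3p there were 835, 1095 and 1954 RPM (A) and 31, 48, 275 and 832 RPM (B) in irradiated mice against 663 to 1424 RPM (A) and 757 to 969 RPM (B) in sham mice. The low values were thus 3 irradiated libraries of letter B, and the other 4 lay within or above the sham range. The difference of irradiation changes between lung and heart was tested directly, and 0 of 10 members were called by limma in C3H (5.35% of 374 miRNAs) or C57 (3.21%), with 0 at an unadjusted p under 0.05 (20.1 and 16.3% of all).

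The other miRNAs of these transcripts were compared as context. Mean levels in sham mice were 438 RPM in WBC and 290 RPM in RBC against 12.4 to 58.1 RPM in the organs for miR-17-3p, and 41.8 and 37.3 RPM against 1.21 to 5.08 RPM for miR-93-3p. For miR-18a-3p they were 18.2 and 26.0 RPM against 0.20 to 0.57 RPM, with 0 reads in 11 of 23 heart and 13 of 23 brain libraries, and for miR-25-5p 2.67 and 2.37 RPM against 0.05 to 0.19 RPM, with 0 reads in 20 of 23 heart and 15 of 23 brain libraries. Not all arms were higher in blood. The means of miR-92a-1-5p were 1.87 and 1.13 RPM against 6.09 RPM in lung, 1.90 RPM in heart and 1.18 RPM in brain, and its log2 difference between blood and organs was 1.93 with quantile scaling but -0.85 with library size. The 2 arms that did not pass, miR-19a-5p and miR-19b-1-5p, were at -0.04 and -0.55 with a looser filter. Of 6 mature miRNAs specific to the miR-106a-363 cluster 4 passed, and the other 2 had 0 reads in every sham library. The most abundant, miR-20b-5p, averaged 122 RPM in WBC and 24.0 RPM in RBC against 39.97 RPM in lung, 12.3 RPM in brain and 5.60 RPM in heart. After irradiation 0 of those tested from either list were called in any tissue, where 0 to 9.71% of all miRNAs were. The miR-106a-363 miRNAs summed to 15.7 RPM in brain, 9.09 RPM in heart, 51.9 RPM in lung, 39.6 RPM in RBC and 184 RPM in WBC, small beside the miR-17-92 sums in the same tissues.

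Sham mice were compared between strains (females, C3H minus C57) and between sexes (C57, males minus females). Few members were called, and each call was lost when a certain single library was left out. In heart 1 of 10 was called by strain, miR-106b-5p (log2 difference 1.27, SE 0.36, adjusted p = 0.0127), with 12.7, 31.0 and 94.7 RPM in C3H and 4.39, 10.8 and 13.8 RPM in C57 females, and 11.4% of all miRNAs were called. The C3H libraries of letter A (43.5 to 94.7 RPM) stood apart from the C57 females of letter A (8.47 to 12.5 RPM), while those of letter B (12.7 to 18.5 RPM) overlapped the C57 females of letter B (4.39 to 13.8 RPM). The blood markers split the same way, with a median erythrocyte sum of 1929 RPM in C3H against 469 RPM in C57 females of letter A and 640 against 694 RPM in letter B, and a median leukocyte sum of 2661 against 1160 RPM and 1186 against 1363 RPM. Neither the strain difference within a letter nor the part of blood RNA in it was tested. In heart 1 of 10 was called by sex, miR-19a-3p (1.22, SE 0.41, adjusted p = 0.0233), with 18.7, 32.8 and 53.4 RPM in males and 2.5, 12.9 and 13.7 RPM in females, and 10.1% of all were called. These groups did not overlap by sex, nor did those of miR-17-5p (66.9 to 170 RPM in males, 39.4 to 58.3 RPM in females), miR-19b-3p (144 to 301 RPM and 45.3 to 90.0 RPM) and miR-106b-5p (16.4 to 47.2 RPM and 4.39 to 13.8 RPM). The share of all miRNAs without overlap by sex is not given here. The summed leukocyte markers did not overlap either, at 1672 to 2603 RPM in males and 986 to 1592 RPM in females, while the erythrocyte sums did (481 to 1353 RPM and 340 to 704 RPM). Across the 20 C57 heart libraries the leukocyte sum correlated with miR-19a-3p at r = 0.84, miR-17-5p at 0.87, miR-19b-3p at 0.86 and miR-106b-5p at 0.90, and its part in the differences by sex was not tested. By adjusted p alone 5 of 10 members passed by sex in heart, where 34.9% of all did. Without C57 sham replicate 15 of heart the call by strain (1.09, adjusted p = 0.0392) and that by sex (0.91, adjusted p = 0.0839) were both lost, as was the former without C3H sham replicate 3 or 4 and the latter without C57 sham replicate 8.

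In RBC 1 of 10 was called by sex, miR-106b-3p (1.33, SE 0.36, adjusted p = 0.0104), with 1.9, 2.8 and 3.6 RPM in males and 0.3, 1.1 and 3.1 RPM in females, where 6.12% of all were called, and by adjusted p alone 5 of 10 members and 14.4% of all passed. These are levels of few counts, and without C57 sham replicate 13 the call was lost (1.13, adjusted p = 0.0408). In WBC 1 of 10 was called by strain, miR-92a-3p (1.28, SE 0.31, adjusted p = 0.0045), with 470 to 1550 RPM (median 856, n = 5) in C3H and 354 to 495 RPM (median 468, n = 4) in C57 females, where 16.1% of all were called, and by adjusted p alone 4 of 10 members and 22.3% of all passed. That call was lost without C3H sham replicate 4 or 5 or C57 sham replicate 9 (1.13 to 1.17). By limma 0 of 10 were called by strain in brain, lung and RBC, where 3.04%, 5.54% and 7.19% of all were called, and by sex in brain, lung and WBC, where 4.87%, 2.27% and 7.62% were called. At an unadjusted p under 0.05 these 6 comparisons counted 3, 0 and 3 members by strain (33.5, 22.4 and 30.6% of all miRNAs) and 0, 5 and 1 by sex (36.1, 28.7 and 26.7%). Library size scaling moved the median of all miRNAs from -0.02 to 0.36 by strain in heart, from 0.0066 to -0.75 by strain in WBC and from -0.06 to 0.31 by sex in heart. Whether these differences varied between tissues was not tested.

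Within tissues, correlations between members differed by cluster and by tissue. For all correlations in this paragraph, log2 levels were taken as deviations from the mean of their group of tissue, strain and treatment. Across the libraries of each tissue, as a description, the median correlation of these deviations over the 15 pairs within miR-17-92 was 0.71 in heart, 0.63 in lung, 0.52 in RBC, 0.36 in brain and -0.01 in WBC. Over the 6 pairs within miR-106b-25 it was -0.05, 0.07, 0.36, -0.09 and 0.18, and over the 24 pairs between the clusters 0.04, -0.05, 0.32, -0.15 and 0.20, in the same order of tissues. Single pairs ranged widely, and those named next were chosen after their values were seen. The levels of miR-19a-3p correlated with those of miR-19b-3p at r = 0.79 to 0.99 over the 5 tissues, and with those of miR-106b-5p from the other cluster at 0.74 to 0.95. Levels of miR-92a-3p correlated with those of miR-25-3p, which has its seed, at 0.46 to 0.84, but with those of miR-19a-3p at only -0.54 to 0.34. Neighbours in the miR-106b-25 cluster, miR-106b-5p and miR-93-5p, correlated at -0.60 to -0.26. The points of a tissue come from 1 count table.

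Across the 20 group means, the miRNAs outside both clusters whose log2 levels followed the miR-17-92 sum most closely, of 151 with a mean of at least 100 RPM over all libraries, were miR-15a-5p (r = 0.984), miR-142a-5p (r = 0.984) and miR-142a-3p (r = 0.982). Those that followed the miR-106b-25 sum were miR-16-5p (r = 0.986), miR-144-5p (r = 0.962) and miR-144-3p (r = 0.957). The sums of the clusters correlated with each other at r = 0.937, and miR-106b-3p with its own cluster at -0.833. The 20 points share animals and library totals.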

How the data were processed

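The authors made small RNA libraries from organs and blood fractions, trimmed the reads, and matched them against mouse miRNAs (mm10) with BaseSpace applications, leaving out runs with few miRNA reads. As deposited, the data are unnormalised counts of reads for 1915 mature miRNAs, in a table per tissue, for 167 libraries from 35 animals in 20 groups, with 0 columns of no sample. Whether molecular identifiers were counted, and how reads matching several miRNAs were assigned, is not given in the sources used here, so counting intervals cover counting error only and near-identical members such as miR-19a-3p and miR-19b-3p may share reads. Replicate libraries always differed by more than sampling noise (smallest chi-square per degree of freedom 17.8).

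Counts were filtered in R 4.3.3 with edgeR 4.0.16 (count minimum 10, total minimum 15), transformed by voom with quantile normalisation and tested in limma 3.58.1 over all miRNAs of a tissue, 1 fit of 4 groups per tissue. Sham tissues, strains by sex, and lung with heart were fitted jointly. Tests were two-sided, and a miRNA was called at a Benjamini-Hochberg adjusted p under 0.05 and a fold of at least 2.25 (1.17 on the log2 scale). Correlations used log2(RPM + 1), and those between members within a tissue used deviations from the group means. The fits were tested on simulated counts. Alternatives were edgeR, DESeq2 1.42.0, TMM or library size scaling, other filters and totals, no fold minimum, letter, sex or animal terms, subsets of mice and leaving out single libraries. The fits within a letter, also without a heart library that stood apart, the animal block for lung and heart, and leaving out libraries in the strain, sex and lung with heart fits were added after the data were seen.

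The members, context lists and marker lists were chosen with earlier results of these data known. The miRNAs named are the 10 members, their context and marker lists, and the 3 miRNAs most like each cluster sum. Animal numbers in the labels pair the tissues of a mouse. Deviations of the tissues of an animal from their group means correlated weakly (medians -0.07 to 0.15 over pairs of tissues), and the block correlation was 0.021 in sham tissues and 0.057 in lung and heart. Replicates of a group were separate animals. Plasma was not analysed here.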

Additional observations from a re-analysis of the deposited data

Results flagged for a closer look

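A library was listed where, in a group of 4 to 10, its RPM on a log scale lay further from the nearest other library than Dixon's 95% critical value allows. This held 19 times in 150 tests of a member in a group (12.7%), and chance gives about 1 in 20. No cause was tested.

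In brain, C3H irradiated replicate 2 was low for miR-19a-3p (1.35 RPM), miR-19b-3p (15.5 RPM) and miR-106b-5p (5.38 RPM), where the other libraries of the group held 4.98 to 6.47, 49.5 to 81.3 and 10.2 to 14.9 RPM. Replicate 4 of that group was low for miR-17-5p (12.7 RPM, others 22.5 to 31.3). C3H sham replicate 5 was high for miR-17-5p (39.96 RPM, others 21.5 to 28.7) and miR-19a-3p (20.6 RPM, others 5.16 to 8.71). C57 irradiated replicate 5 was low for miR-19a-3p (0.61 RPM, others 4.50 to 5.97) and miR-19b-3p (14.9 RPM, others 42.3 to 47.9), and replicate 1 was low for miR-92a-3p (2.46 RPM, others 5.61 to 7.02).

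In C3H irradiated heart, replicate 3 was low for miR-20a-5p (84.6 RPM, others 285 to 377) and replicate 2 was high for miR-92a-3p (25.2 RPM, others 6.38 to 11.5). In RBC, C3H irradiated replicate 6 was low for miR-92a-3p (366 RPM, others 629 to 833) and C3H sham replicate 3 was high for miR-18a-5p (402 RPM, others 239 to 286).

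In WBC, C3H irradiated replicate 6 was low for miR-19a-3p (44.96 RPM, others 139 to 211), miR-19b-3p (82.5 RPM, others 245 to 389), miR-106b-5p (66.3 RPM, others 166 to 277) and miR-106b-3p (0.168 RPM, others 1.32 to 2.31), the last from 1 read. C57 irradiated replicate 4 was high for miR-19a-3p (729 RPM, others 273 to 333) and low for miR-93-5p (47005 RPM, others 65035 to 73992). In 3 libraries the listed values were low for both miR-19a-3p and miR-19b-3p together.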

How the results depend on the processing

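Of 1311 comparisons of a count of called members or a cluster sum with its value under another setting, 1249 stayed within 1.5 times the reported count or 1 SD of the sum, and no value called as reported reversed, though miR-106b-3p in heart against brain, 0.20 on the log2 scale and not called as reported, was called lower at -1.29 to -2.44 under 5 settings. The counts of 9 members called higher in blood than organs and in WBC than lung, and of 0 called interactions, held under every setting run, except that a stricter filter left 6 members to test against organs and lung, all 6 called higher. The irradiation counts moved only in C3H, from 0 to 3 in heart (11.6% of all miRNAs, and back to 0 without C3H irradiated replicate 3) and 1 in lung (9.83%) within letter A, and to 2 in lung without a fold minimum (33.4%). In the other comparisons, no fold minimum gave 1 member by strain in brain (15% of all miRNAs), 2 by strain in RBC (18.3%), 5 by sex in heart (34.9%), 5 by sex in RBC (14.4%), 4 by strain in WBC (22.3%), 4 in lung against heart (65.5%) and 7 in RBC against WBC (56.5%). By sex in heart the count of 1 became 3 with edgeR (11.2% of all), 4 with library size (14.7%, and 96.3% of those calls were higher in males against 62.2% as reported) and 0 with a stricter filter (4.9%). By sex in RBC the count of 1 became 0 with edgeR (11.2%), with library size (6.12%) and with a stricter filter (3.97%), and 2 with TMM (8.27%). By strain in WBC the count of 1 became 2 with edgeR and TMM (16.4 and 15.8%) and 0 with library size (28.2%). Heart against brain went from 8 to 4 with library size (74.8%) and to 4 of the 6 tested with a stricter filter (51.4%), and lung against heart from 0 to 2 in C3H mice alone (38.4%). RBC against WBC (13.7 to 23.7% of all under these settings) went from 2 to 1 with edgeR and with a stricter filter, and to 0 with TMM, with library size, with totals that leave out miR-16-5p, miR-126a-3p and miR-1a-3p, and with irradiated libraries included. With those totals the miR-17-92 sums were 13749 RPM (RBC), 12202 RPM (WBC), 2261 RPM (lung), 1634 RPM (heart) and 348.5 RPM (brain), and the miR-106b-25 sums 199549, 188579, 9760, 8717 and 5237 RPM in that order. The causes of these shifts were not tested.

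Leaving out single libraries gave 0 to 1 called members in C3H heart after irradiation (1 without irradiated replicate 1 or sham replicate 5), 1 to 2 in RBC against WBC, 0 to 1 by strain in heart, 0 to 2 by sex in heart (2 without C57 sham replicate 1, 3, 4 or 14), 0 to 2 by sex in RBC (2 without C57 sham replicate 3, 11 or 12) and 0 to 2 by strain in WBC (2 without C3H sham replicate 1). The libraries that ended a call are named with the results above, and the other counts did not move. Of 766 values of single members, 28 lost and 19 gained a call. Of 12586 fitted differences 602 changed sign, 597 of them called in neither setting and 5 for miR-106b-3p between heart and brain, called lower without quantile normalisation. With the animal as a replicate block the members called numbered 9 in blood against organs, 8 in heart against brain, 0 in lung against heart, 2 in RBC against WBC and 9 in WBC against lung, and the block changed no call. Depth limits miR-106b-3p in blood, where some libraries held 1 read.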
